A study of Rattus norvegicus with 6 samples.

Results

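The 10 genes described here encode the principal scaffold proteins of the excitatory postsynaptic density: Dlg1, Dlg2, Dlg3 and Dlg4, Shank1, Shank2 and Shank3, and Homer1, Homer2 and Homer3. They were taken by name, as members of the 3 families among the 38445 genes counted, by a rule that uses no measured value. Earlier results of these data were known when they were chosen. RNA-seq was performed on the amygdala of adult male Sprague Dawley rats. Control rats received saline and ethanol rats received ethanol at 1 g/kg, both by intraperitoneal injection, and tissue was taken 1 h later. Each group held 6 rats, and RNA from 2 rats was pooled per library, which left 3 libraries per group, named control 1 to 3 and ethanol 1 to 3. The labels name no engineered allele, and the dissection took the amygdala as a whole, so a library mixes its nuclei and all of their cell types.

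Beneath the membrane of a glutamatergic synapse these scaffolds form layers. Dlg proteins bind the tails of NMDA receptors, potassium channels and adhesion molecules through PDZ domains, SAPAP proteins (Dlgap genes) link them to Shank proteins, and Shank proteins in turn bind Homer, which holds group I metabotropic glutamate receptors and inositol trisphosphate receptors. Homer1 is also an activity-dependent gene, because neuronal firing favours a short transcript, Homer1a, whose protein lacks the coiled coil and uncouples the long forms. The counts used here are sums over all exons of a gene, so they do not separate Homer1a from the long transcripts.

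After acute ethanol none of the 10 scaffold genes differed from control beyond the spread between libraries. Levels are given as CPM, the count of a gene relative to its library total after TMM scaling in edgeR. All 10 fitted log2 fold changes (ethanol minus control) lay above 0, between 0.00 for Shank2 and 0.15 for Shank1, Homer1 and Homer2, with a median of 0.07 against 0.01 over the 18141 genes tested, but Shank2 lay just under 0 when libraries were scaled by size alone (-0.02) and in DESeq2, which left 9 of 10 above. The median moved from 0.05 without ethanol 2 to 0.11 without control 2. With scaling by library size alone it was 0.05, where the median of all genes tested was -0.02. Of all genes tested 52.6% had a value above 0, and no test was run over the members as a set. In the quasi-likelihood test of edgeR, adjusted by Benjamini-Hochberg over all genes, 0 of 10 members passed an adjusted p of 0.2, as did 0% of all genes, and the adjusted p of every member was 0.9999. At an unadjusted p of 0.05 the test passed 0 of 10 members and 4.15% of all genes. DESeq2, edgeR's likelihood ratio test and limma-voom passed 0 of 10 members at either threshold too, while calling 75, 77 and 0 of all genes at an adjusted p of 0.2. The groups overlapped for all 10 members, while in 3.66% of the genes tested every ethanol library lay above every control library and in 5.19% every ethanol library lay below. Exact permutation tests on the log2 CPM of the 6 libraries gave p between 0.2 and 1 for the members.

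**Figure D1:**
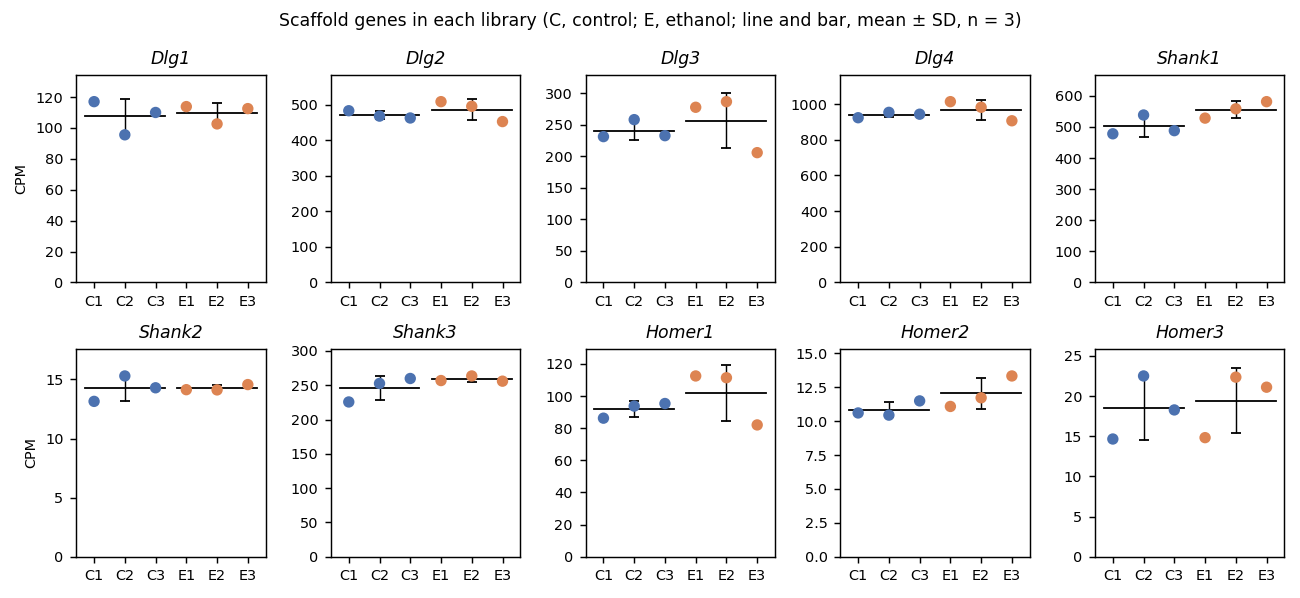
Level of each scaffold gene in CPM (vertical axis, from 0) in control libraries C1 to C3 and ethanol libraries E1 to E3, with the mean and SD of each group of 3. The groups overlap in all 10 panels. Homer1, Dlg3, Dlg4 and Dlg2 each have their lowest point in E3, and Shank1, Shank2, Shank3 and Homer3 in C1.

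Dlg4 encodes PSD-95, the best known scaffold of the postsynaptic density (gene 29495, chr10:56625845-56655543, plus strand; all positions of genes are in Rnor_6.0). It was at 923.9, 954.0 and 943.6 CPM in control 1 to 3 and at 1014, 982.6 and 906.8 CPM in ethanol 1 to 3. Ethanol 1 and 2 were thus above every control library and ethanol 3 was below every one. Its log2 fold change was 0.04 with a 95% interval of -0.14 to 0.23, which corresponds to a change between -9.46% and 17.0% (quasi-likelihood test of edgeR, unadjusted p = 0.618).

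Dlg2, which encodes PSD-93, a close relative of PSD-95 (gene 64053, chr1:154916274-157274077, plus strand), was at 482.6, 467.5 and 462.2 CPM in the control libraries and at 508.1, 495.1 and 452.1 CPM in the ethanol libraries. The order of the ethanol libraries was that of Dlg4. With a log2 fold change of 0.04 and an interval of -0.13 to 0.22, the gene gave an unadjusted p of 0.577 by edgeR.

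Dlg3 encodes SAP102, the family member that predominates early in development (gene 58948, chrX:70596246-70648529, plus strand). Control 1 to 3 had 231.1, 258.0 and 232.6 CPM, and ethanol 1 to 3 had 277.6, 286.5 and 205.7 CPM. The first 2 ethanol libraries exceeded all controls and the third was the lowest of the 6. The SD was 15.1 CPM among controls and 44.3 CPM among ethanol libraries, and the log2 fold change was 0.09 (-0.20 to 0.39; edgeR, unadjusted p = 0.486).

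Dlg1 encodes SAP97, which traffics AMPA receptors (gene 25252, chr11:72164566-72378895, minus strand). Levels were 117.0, 95.54 and 110.0 CPM in controls and 113.8, 102.6 and 112.5 CPM in ethanol libraries. Here both the highest and the lowest library were controls, and the log2 fold change of 0.03 had an interval of -0.17 to 0.23 (edgeR, unadjusted p = 0.748). The summed length-scaled level of the 4 Dlg genes, in CPM per kilobase of exon (RPKM), was 252 ± 0.84 in controls and 261 ± 16.7 in ethanol libraries (SD, n = 3; 2-sided exact permutation p = 0.4, where 0.1 is the smallest value that the 20 label swaps allow).

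Shank1 had the smallest p of the 10 genes. It encodes a scaffold of the deep layer of the density that enlarges spine heads (gene 78957, chr1:100297137-100344377, plus strand). It was at 477.8, 538.2 and 487.9 CPM in controls and at 528.2, 558.1 and 581.1 CPM in ethanol libraries. Ethanol 1 lay below control 2, and the other two ethanol libraries lay above every control. The mean went from 501 ± 32.4 to 556 ± 26.5 CPM (SD, n = 3). The log2 fold change was 0.15 with an interval of -0.04 to 0.34, so the data leave a range from -2.55% to 26.1% (edgeR quasi-likelihood, unadjusted p = 0.102, adjusted p = 0.9999). By unadjusted p its rank was 1509 of 18141 genes, and without control 2, the highest control, the log2 fold change was 0.20 (edgeR, unadjusted p = 0.0432, adjusted p = 0.975). In that fit 1 of 10 members was higher at an unadjusted p of 0.05 beside 1.71% of all genes. Other omissions lowered the Shank1 value. It was 0.11 without control 1, its lowest library (edgeR, unadjusted p = 0.297), and 0.12 without ethanol 3, its highest (edgeR, unadjusted p = 0.164).

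Shank3, whose human counterpart is linked to autism spectrum disorder (gene 59312, chr7:130474278-130534679, plus strand), was at 225.6, 252.6 and 259.8 CPM in controls and at 256.8, 263.5 and 255.9 CPM in ethanol libraries. The ethanol libraries were close together and control 1 stood below the rest. Its log2 fold change was 0.07 (-0.09 to 0.24; edgeR, unadjusted p = 0.343).

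Shank2 (gene 171093, chr1:217149156-217593950, plus strand) was at 13.14, 15.29 and 14.29 CPM in controls and at 14.13, 14.11 and 14.56 CPM in ethanol libraries. All ethanol values fell inside the control range, and the interval around the log2 fold change of 0.00 was -0.19 to 0.19. The counting annotation bears on the level of this gene. It holds an unnamed gene (103690160, chr1:215208591-215246638) that a shift of 2347312 bases lays over the last 9 of the 30 exon blocks of Shank2. At exactly that shift 3 blocks, with 8021 nt together, have the same width in both genes. Cttn, the gene next to Shank2, which encodes the Shank-binding actin regulator cortactin, is annotated at both places as well.

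Reads that aligned to several places had not been counted. Over all 6 libraries together the unnamed gene had 1 read and Cttn had 4 reads. The last 9 blocks hold 8413 of the 13841 nt of Shank2 exons, or 60.8%, so the Shank2 count may come largely from the other 21 blocks, which was not tested on the reads. The ratio between groups rests on whichever exons were counted, but the level per length and the share within the family are uncertain for this gene. Among the other 9 members no gene on the same chromosome repeated 3 or more exon blocks at one shift.

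Homer1 encodes the Homer protein that couples metabotropic receptors to calcium stores and is induced by activity (gene 29546, chr2:22909550-23012303, plus strand). Its libraries were at 86.23, 93.75 and 95.35 CPM in controls and at 112.5, 111.4 and 82.03 CPM after ethanol. Ethanol 1 and 2 were each above every control and ethanol 3 was below every control. The mean was 91.8 ± 4.87 CPM in controls and 102 ± 17.3 CPM after ethanol (SD, n = 3), and the log2 fold change of 0.15 had an interval of -0.13 to 0.43 (edgeR quasi-likelihood, unadjusted p = 0.243).

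Homer2 (gene 29547, chr1:143443300-143535579, minus strand), a constitutive coiled-coil form with a known part in alcohol-related plasticity of the nucleus accumbens, was at 10.61, 10.45 and 11.50 CPM in controls and at 11.09, 11.73 and 13.34 CPM in ethanol libraries. Ethanol 3 was the highest library, the reverse of its place for Homer1. The log2 fold change was 0.15 (-0.07 to 0.38; edgeR, unadjusted p = 0.156).

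Homer3 (gene 29548, chr16:20880447-20890968, minus strand), best known from cerebellar Purkinje cells, was the most variable member. It was at 14.66, 22.51 and 18.28 CPM in controls and at 14.83, 22.36 and 21.11 CPM in ethanol libraries. Each group held one library below every library of the other 4, and the highest library exceeded the lowest by a ratio of 1.54. The coefficient of variation was 21.2% in controls and 20.8% after ethanol, where counting error alone gives at most 3.24%, and the interval of the log2 fold change (0.07) was the widest of the 10, from -0.37 to 0.52. Of its exons 412 nt, or 11.6%, lie opposite exons of Ddx49, from which it was told apart by strand.

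**Figure D2:**
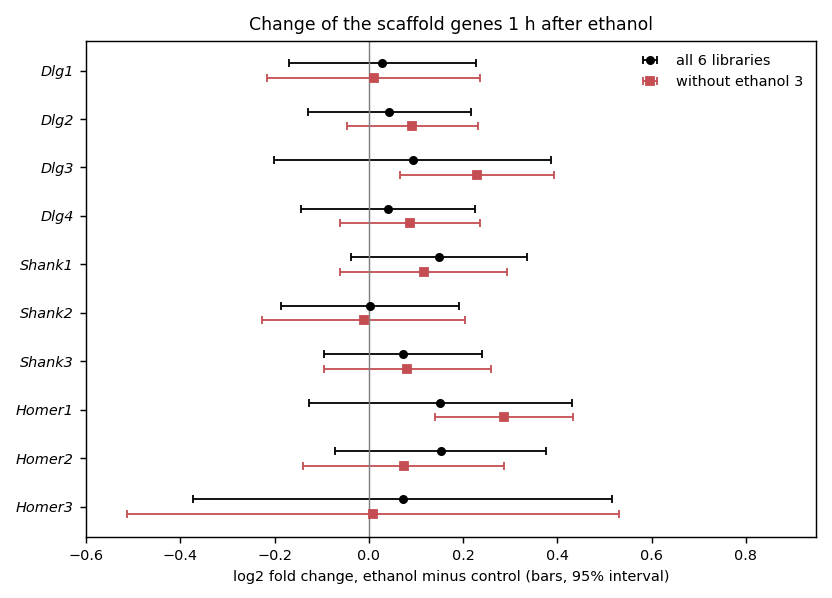
Log2 fold change (horizontal axis, ethanol minus control) of each scaffold gene with its 95% interval, from all 6 libraries (circles) and without ethanol 3 (squares). With all libraries the 10 intervals hold 0, and without ethanol 3 those of Homer1 (0.14 to 0.43) and Dlg3 (0.07 to 0.39) lie above it.

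The values of Homer1 and Dlg3 depended on the library ethanol 3. Homer1, Dlg3, Dlg4 and Dlg2 had their lowest level of all 6 libraries there, and ethanol 3 lay below the mean of ethanol 1 and 2 by a log2 difference of -0.45 for Homer1, -0.46 for Dlg3, -0.15 for Dlg2 and -0.14 for Dlg4. Of the genes tested, 5.68% had a lower difference than Homer1, 5.58% than Dlg3, 24% than Dlg2 and 25.5% than Dlg4. Shank1 and Homer2 were instead highest in ethanol 3. Without that library Homer1 had a log2 fold change of 0.29 (unadjusted p = 0.00241, adjusted p = 0.286 by edgeR) and Dlg3 one of 0.23 (unadjusted p = 0.0127, adjusted p = 0.436), so 2 of 10 members were higher at an unadjusted p of 0.05 beside 4.48% of all genes, and neither passed the adjusted threshold of 0.2. Dlg2 and Dlg4 had unadjusted p of 0.162 and 0.21 in that fit. Leaving out ethanol 1 or ethanol 2 instead lowered both values, to 0.08 and 0.08 for Homer1 and to 0.03 and 0.01 for Dlg3. Homer1, Dlg3, Dlg2 and Dlg4 exceeded all controls in ethanol 1 and 2, which also held for 14.2% of the genes tested. Control 1 was likewise the lowest of all 6 libraries for 4 members, Shank1, Shank2, Shank3 and Homer3. Without control 1 the log2 fold change was 0.007 for Shank3, -0.06 for Shank2 and -0.08 for Homer3. In that fit 8 of 10 members lay above 0.

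Control 1 and ethanol 3 were also the library of each group with the lowest markers of pallial glutamatergic neurons, the cortex-like projection cells of the basolateral amygdala, and the highest oligodendrocyte markers. The summed level of 6 pallial markers, led by the vesicular glutamate transporter Slc17a7, was 483 CPM in control 1 and 485 CPM in ethanol 3, against 641 to 1016 CPM in the other 4 libraries. The 6 oligodendrocyte markers summed to 8377 and 9725 CPM in these 2 libraries and to 3548 to 6020 CPM in the others. Markers of striatal-type GABA neurons were also highest in control 1 and ethanol 3, at 512 and 542 CPM, against 335 to 495 CPM in the other libraries. Leaving out both, a choice made after seeing the data, gave Homer1 a log2 fold change of 0.24 (edgeR, unadjusted p = 0.00713, adjusted p = 0.463) and Dlg3 one of 0.19 (edgeR, unadjusted p = 0.0508), so 1 of 10 members passed beside 3.24% of all genes in that direction. Whether the cell makeup of the pools had a part in the members' levels was not tested, and in bulk tissue fewer cells of a type and less RNA per cell cannot be told apart.

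**Figure D3:**
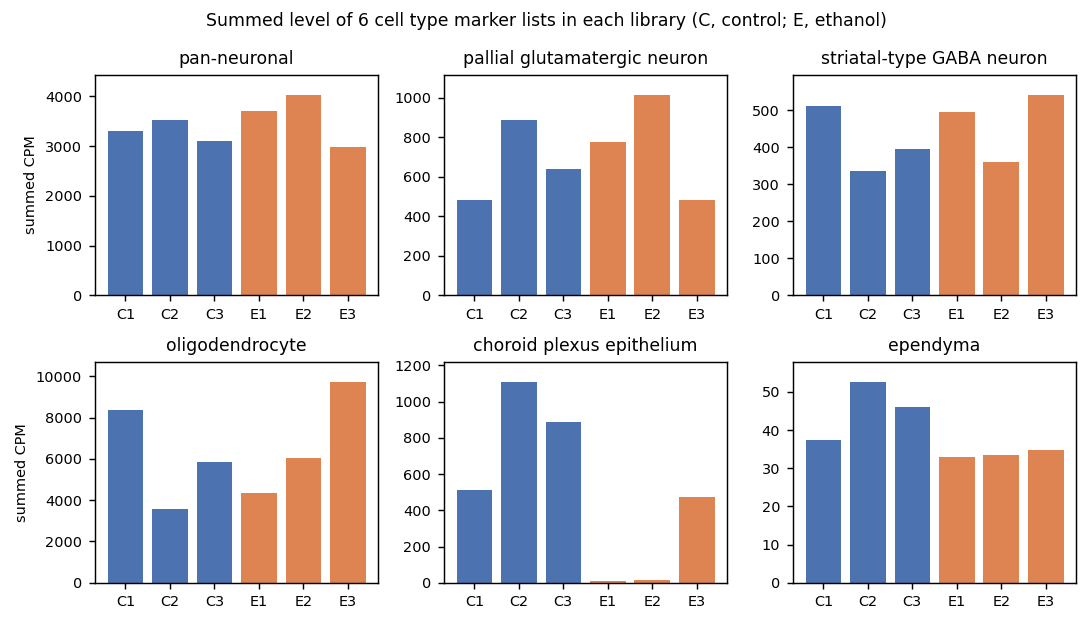
Summed CPM (vertical axis, from 0) of 6 lists of cell type markers in control libraries C1 to C3 and ethanol libraries E1 to E3, with no replicates behind a bar. Pallial markers are lowest, and oligodendrocyte and striatal-type markers highest, in C1 within the controls and in E3 within the ethanol group. Choroid plexus markers are 11.8 CPM in E1 and 12.7 CPM in E2.

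Neuronal genes were present in every library, as the tissue label has it, since all 4 pan-neuronal, 6 pallial and 8 striatal-type markers exceeded 1 CPM throughout. These lists do not tell the amygdala from neighbouring cortex or striatum. Pan-neuronal markers, led by Snap25, summed to 3102 to 3519 CPM in controls and to 3697, 4033 and 2983 CPM in ethanol 1 to 3. As for Homer1 and Dlg3, ethanol 1 and 2 were above every control and ethanol 3 was below every control. The lowest control was control 3 for these markers and control 1 for both genes. Striatal-type markers, led by Penk, ranged from 335 to 512 CPM in controls and from 361 to 542 CPM after ethanol. Control 1 and ethanol 3 were the highest of their groups, the opposite of their place for pallial markers. The 8 choroid plexus markers, led by Ttr, summed to 513 to 1109 CPM in controls but to 11.8, 12.7 and 474 CPM in ethanol 1 to 3, so the groups did not overlap, with control 1 and ethanol 3 close together (exact permutation p = 0.1, the smallest possible), and only 3 of the 8 exceeded 1 CPM in every library. The 5 ependymal markers found, led by Foxj1, showed the same order of groups, 37.4 to 52.6 against 32.8 to 34.9 CPM. Astrocyte (Aqp4 highest), microglial (Csf1r highest) and endothelial (Slco1c1 highest) sums overlapped, at 4005 to 4728 and 4096 to 5319, 253 to 288 and 262 to 305, and 230 to 245 and 212 to 244 CPM.

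Promoter sequences were at hand for 6 of the 10 genes (RefSeq, GRCr8; 250 bases before to 50 after the start of the gene). Those of Homer1, Dlg4 and Dlg2 are shown because these members shared the low value in ethanol 3 (Dlg3, the fourth, has no entry). The motifs below were searched on both strands, and matches are in capitals. The cyclic AMP response element TGACGTCA occurred in 1.83% of all 33469 promoters of this length and its short core TGACG, which the full element contains, in 21.2%. The E-box CACGTG occurred in 6.42%, the TATA box TATAAA in 14.2% and the GC box GGGCGG in 33.1%. The windows are chr2:26278762-26279061 for Homer1, chr10:55239534-55239833 for Dlg4 and chr1:154539421-154539720 for Dlg2, all on the plus strand.
Homer1: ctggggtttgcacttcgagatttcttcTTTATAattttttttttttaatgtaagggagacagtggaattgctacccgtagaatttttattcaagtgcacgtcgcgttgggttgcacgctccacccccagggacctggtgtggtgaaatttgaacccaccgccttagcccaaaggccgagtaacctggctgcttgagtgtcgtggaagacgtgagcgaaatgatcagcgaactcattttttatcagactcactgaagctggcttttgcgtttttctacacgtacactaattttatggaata
Dlg4: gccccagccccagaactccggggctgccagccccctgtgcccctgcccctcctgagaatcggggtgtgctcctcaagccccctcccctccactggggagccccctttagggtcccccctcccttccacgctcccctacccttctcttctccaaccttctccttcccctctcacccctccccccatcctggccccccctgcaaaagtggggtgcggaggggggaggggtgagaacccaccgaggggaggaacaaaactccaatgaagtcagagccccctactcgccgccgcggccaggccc
Dlg2: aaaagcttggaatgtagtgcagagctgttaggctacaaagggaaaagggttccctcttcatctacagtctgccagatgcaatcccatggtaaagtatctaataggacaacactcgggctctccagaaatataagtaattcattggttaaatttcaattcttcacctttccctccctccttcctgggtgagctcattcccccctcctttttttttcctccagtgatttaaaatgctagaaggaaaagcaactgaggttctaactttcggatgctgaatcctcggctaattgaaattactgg

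In these 3 windows the one match was a TATA box in Homer1, on the opposite strand at position -223 from the start, and no other motif was present. The GC content was 44.7% for Homer1, 68.7% for Dlg4 and 42.3% for Dlg2, against a median of 51.7% over all promoters. Of the other windows, Dlg1 (chr11:82607748-82608047, minus strand) held an E-box at position -62 and a GC box at position 39, while Shank3 and Homer3 held none of the motifs. A match is a string of letters and not a measured site, and the absence of one covers this window only.

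Per length, the transcript of PSD-95 had the highest level. The mean level over all 6 libraries was 163 RPKM for Dlg4, 2.91 times that of Shank1 at 56.2 RPKM. Shank1 exceeded the next gene, Dlg3 (37.6 RPKM), in all 6 libraries, whereas Dlg3, Shank3 (35.1 RPKM) and Dlg1 (34.9 RPKM) had overlapping ranges. Dlg2 followed at 20.4 RPKM and Homer1 at 17.1 RPKM. The ranges of these last genes overlapped (19.3 to 21.6 and 14.5 to 19.8 RPKM), but Dlg2 was the higher in 6 of 6 libraries. Homer2 (5.78 RPKM) and Homer3 (5.32 RPKM) did not differ beyond their spread.

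Shank2 came last at 1.03 RPKM. Divided by only the 5428 nt outside the repeated stretch, its counts gave 2.63 RPKM, still below the 4.12 RPKM of the lowest Homer3 library. The order depends on the annotated exon lengths, which ran from 1981 nt for Homer2 to 23489 nt for Dlg2. Dlg1 ranked above Dlg2 per length with 3110 nt of annotated exons, although Dlg2 received more reads in every library.

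**Figure D4:**
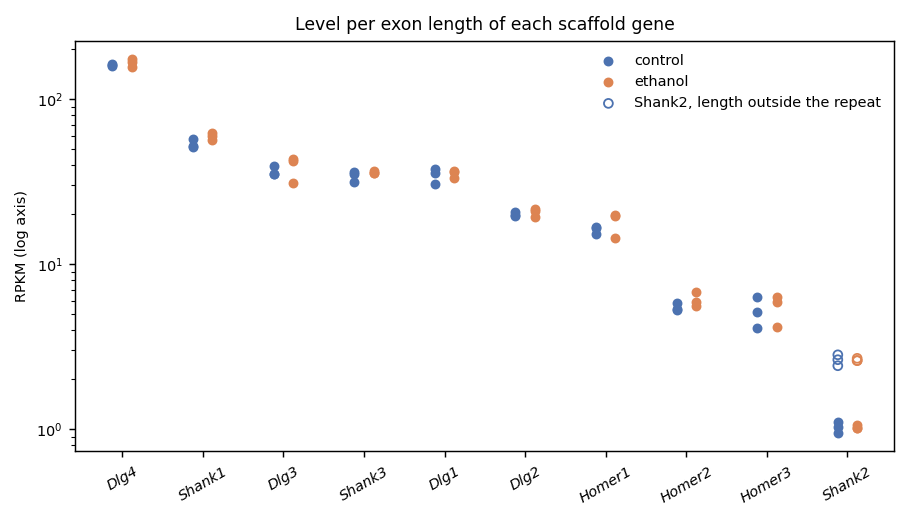
Level per exon length (RPKM, log axis) of each scaffold gene in the 3 control and 3 ethanol libraries, ordered by mean. Dlg4 leads at 155 to 174 RPKM, Dlg3, Shank3 and Dlg1 overlap, and open circles give Shank2 over the length outside the repeated stretch.

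Shares within a family overlapped between the groups in all cases but one. Dlg4 made up 63.9 ± 0.84% of the summed RPKM of the Dlg genes in controls and 63.7 ± 0.49% after ethanol, Shank1 60.2 ± 1.68% and 61.5 ± 1.19% of the Shank genes, and Homer1 60.3 ± 1.44% and 60.7 ± 6.91% of the Homer genes (SD, n = 3 each). The share of Homer1 was 67.0% in ethanol 1, 61.7% in ethanol 2 and 53.3% in ethanol 3. Of the 10 shares, that of Shank2 alone separated the groups, at 1.16 ± 0.02% in controls and 1.07 ± 0.02% after ethanol (2-sided exact permutation p = 0.1, the smallest possible, and 1 after Benjamini-Hochberg adjustment over the 10 shares). With the shorter Shank2 length the shares were 2.91 ± 0.05% and 2.69 ± 0.06%. That length is the same in every library, so it cannot alter the order of the libraries and does not test the separation. The Shank2 level itself did not separate them, and the summed Shank level was 88.6 ± 5.19 RPKM in controls and 96.1 ± 2.87 RPKM after ethanol (exact permutation p = 0.2). The Homer sum was 26.9 ± 1.89 and 29.5 ± 2.36 RPKM (exact permutation p = 0.3).

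The genes around these scaffolds in the postsynaptic density were not called either. Of 42 partner genes in 5 lists, 0 passed an unadjusted p of 0.05 in either direction beside 4.15% of all genes. Of the 42, 34 had a log2 fold change above 0 beside 52.6% of all genes, and their median was 0.08. They were not tested as a set. Scaling by library size alone left 29 of the 42 and 9 of the 10 scaffolds above 0. The median of all genes tested also moved in that fit, to -0.02. Without ethanol 3, 12 of the 42 were higher at an unadjusted p of 0.05 beside 4.48% of all genes, and 8 of the 42 without control 1 and ethanol 3 beside 3.24%. Leaving out any other single library gave 0 or 1 of the 42, and the partner median was lowest at 0.03 without ethanol 1 or ethanol 2. None of them passed the adjusted threshold of 0.2 in any of these fits.

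All 4 SAPAP genes, the link between Dlg and Shank, had values above 0, with 0 past the test. Dlgap3, a SAPAP best known from the striatum, was at 207, 226 and 232 CPM in controls and 254, 254 and 228 CPM in ethanol libraries, with a log2 fold change of 0.15 ± 0.08 (SE; edgeR, unadjusted p = 0.0904). Ethanol 3 lay inside the control range and the other two ethanol libraries above it. Dlgap4 (log2 fold change 0.10) and Dlgap1 (0.03), the most highly counted of the 4 with a mean of 405 CPM in controls, overlapped between groups.

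The 9 regulators of small GTPases in spines were all above 0, with a median of 0.11 and 0 past the test. Sipa1l1, a Rap GTPase-activating protein bound by PSD-95, went from 196 ± 1.73 to 213 ± 13.3 CPM (SD, n = 3). All of its ethanol libraries lay above all controls, as in 3.66% of all genes tested. Its log2 fold change was 0.12 ± 0.07 (SE; edgeR, unadjusted p = 0.103). Agap2 (0.11), which binds Homer, was the most highly counted and overlapped between groups.

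Among 18 other PDZ and MAGUK scaffolds 11 lay above 0, with a median of 0.03 and 0 past the test. Lin7b, a partner of Cask, was at 34.0, 36.2 and 35.9 CPM in controls and at 38.4, 36.9 and 39.1 CPM in ethanol libraries (log2 fold change 0.11 ± 0.06, SE; edgeR, unadjusted p = 0.109). Its ethanol libraries lay above all controls, as in 3.66% of all genes tested. Tanc2 (0.08) and Mpp2 (-0.01) overlapped. All 6 membrane partners of PSD-95 were above 0, led by Grin2b, the NMDA receptor subunit GluN2B, at 0.18 ± 0.17 (SE). Its libraries were at 116, 158 and 136 CPM in controls and at 168, 180 and 117 CPM after ethanol, with the low ends in control 1 and ethanol 3. Adam22, the receptor of the secreted protein Lgi1, had 0.10 ± 0.09 (SE).

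Of 5 proteins bound by the EVH1 domain of Homer, 4 genes lay above 0. Itpr1, the inositol trisphosphate receptor of the endoplasmic reticulum, had the smallest p of all 42 partners, at 184, 166 and 185 CPM in controls and 208, 184 and 203 CPM in ethanol libraries. Ethanol 2 lay within the control range and the other two above it (log2 fold change 0.16 ± 0.07, SE; edgeR, unadjusted p = 0.072). Dnm3, a dynamin that Homer places beside the synapse, had -0.01 ± 0.10 (SE).

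The libraries held 62576504 to 70755739 assigned reads, and single members had between 694 and 67769 counts, so counting error was at most 3.80% (Homer2) for the lowest library of any member. For Shank2 the counting error was 3.41% in control 1, the library with its lowest count, and the coefficient of variation among ethanol libraries was 1.79%. With 3 libraries per group the upper ends of the 95% intervals lay between 14.2% for Shank2 and 43.1% for Homer3. As the labels state that pools came from separate rats but not how rats were assigned to pools, the spread is that between pools of 2 animals.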

How the data were processed

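The authors extracted total RNA from the amygdala, prepared stranded mRNA libraries and sequenced single-end reads of 100 nt. The submitters' processing notes name STAR 2.7.0f, featureCounts of Subread 1.6.3 and the build Rnor_6.0. The deposited values are raw counts per gene, and per the file headers the authors counted reverse-stranded reads over exons, without reads that aligned to several places. Symbols were matched for 29322 of 38445 gene identifiers through a RefSeq gene table. Assigned reads per library lay between 62576504 and 70755739. 3 counts in a library correspond to 0.0424 to 0.0479 CPM, for counting error only.

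For the present values edgeR 4.0.16 was run in R 4.3.3. The filter filterByExpr (minimum count 10, minimum total count 15) left 18141 genes, which were scaled by TMM and compared by the quasi-likelihood F test, adjusted by Benjamini-Hochberg at 0.2, the false discovery rate of the study. At a false discovery rate of 0.2 the study itself reported differing genes, by a test described in supplementary methods not used here. Members were read from the present fit over all genes. Single summed values and shares were compared by 2-sided exact permutation tests over 20 label swaps. RPKM is the scaled CPM per kilobase of merged exon length. The fitting procedure was tested on simulated counts, in which the changed genes had larger changes than any member here. Alternatives were library size alone, DESeq2 size factors, no filter, a minimum of 1 CPM, DESeq2 1.42.0, edgeR's likelihood ratio test, limma-voom (limma 3.58.1), the replicate number as a block, and leaving out each library. Leaving out control 1 and ethanol 3 together was added after seeing the data.

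All 10 members were named. Of each partner list the 2 genes with the smallest p and the 2 with the highest mean CPM were named, and of each marker list the gene with the highest mean CPM. Some genes that this rule selects are not reported here. Cttn and Ddx49 were chosen after their values were seen. Members and lists were chosen with earlier results of these data known. The chromatin, methylation, qPCR and behavioral experiments were not analysed here.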

Additional observations from a re-analysis of the deposited data

How the results depend on the processing

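No alternative brought a member past an adjusted p of 0.2 in 15 settings per member. The number of genes called among all genes was 0 in the fit reported, 75 with DESeq2, 77 with edgeR's likelihood ratio test, between 0 and 83 when a single library was left out (83 without ethanol replicate 3) and 87 without control replicate 1 and ethanol replicate 3 together, and the cause was not tested. Members at an unadjusted p of 0.05 numbered 0 to 2 when a single library was left out. They were Homer1 and Dlg3 without ethanol replicate 3, beside 4.48% of all genes higher. Without control replicate 2 it was Shank1 (log2 fold change 0.20, edgeR, unadjusted p = 0.0432), beside 1.71%. Without control replicate 1 and ethanol replicate 3 together there was 1, beside 3.24% of all genes higher. Shank2, Homer3 and Dlg1 changed sign. Shank2 had -0.023 with library size alone, -0.0001235 with DESeq2, -0.0594 to 0.058 without single libraries and -0.0756 without both. Homer3 ranged from -0.0778 to 0.24 without single libraries and had -0.14 without both, and Dlg1 ranged from -0.0493 to 0.086. The other 7 members stayed above 0 in every setting.

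With the replicate number as a block, edgeR called 0 genes (smallest adjusted p 0.483, 1015 genes at an unadjusted p of 0.05) and 0 members, whose median was 0.07 (Shank1 smallest, unadjusted p = 0.0801). The replicate block was not used for the main values because the numbers name different rats and the deviations of same-numbered libraries correlated by only 0.0264 for number 1, beside 0.388 for number 2 and 0.211 for number 3. Not every library correlated best with its own number, as control 1 correlated by 0.305 with ethanol 3.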
